A study of Mus musculus with 6 samples.

Results

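The mitochondrial respiratory chain genes described here are the 89 genes, of 19938 measured, that encode subunits and assembly factors of the 5 complexes of oxidative phosphorylation. They were taken by name from the array probe sets that carry exactly 1 gene symbol: Nduf genes, Sdha to Sdhd, Uqcr genes, Cox4 to Cox8 genes and Atp5 genes. The rule used no measured value and found 114 of 21789 such probe sets, and for the 17 genes with several probe sets the one with the highest mean was used. Complex I has 41 of these genes, complex II 4, complex III 8, complex IV 19 and complex V 17.

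RNA came from conventional dendritic cells sorted from wild-type mouse spleen and was hybridised to 6 Affymetrix arrays, 2 for each population. One population was CD24+ cDC1, another was CD24+CD172a+ cDC2, and the third, CD24-CD172a+ cDC2, is titled by CD172a+ alone in the sample titles and named as CD24-CD172a+ in the design text. The labels name no treatment, and the age, sex and number of the animals are not given there. Whether the 2 arrays of a population came from separate animals is not stated either, so p-values measure only the spread between these arrays, which may be technical.

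Complex I takes electrons from NADH and complex II takes them from succinate; both pass them by ubiquinone to complex III, cytochrome c and complex IV, where oxygen is reduced. Complexes I, III and IV pump protons out of the matrix, and complex V, the ATP synthase, uses the gradient to make ATP. All genes of the group are nuclear, while further subunits of complexes I, III, IV and V are encoded in mitochondrial DNA. Conventional dendritic cells are antigen-presenting cells; cDC1 are specialised in presenting exogenous antigen to CD8 T cells and cDC2 in priming CD4 T cells.

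The cDC1 and cDC2 labels were first checked on defining markers. Xcr1, the chemokine receptor of cDC1, read 10.71 and 10.71 (log2 intensity) on the cDC1 arrays, 4.79 and 5.45 on the CD24+CD172a+ arrays and 5.65 and 6.07 on the CD24-CD172a+ arrays. Sirpa, which encodes CD172a, read 4.97 and 5.39, 10.01 and 10.27, and 10.18 and 10.20 in the same order. Both markers separate cDC1 from cDC2, so they did not check the CD24 label of the cDC2 populations. Array medians lay between 29.53 and 30.58 on the linear scale, and replicate arrays correlated at 0.993 to 0.994 over all probe sets, which are not independent. All levels below are log2 intensities, differences are log2 differences, given with limma's standard error (SE), and a gene is called when its p adjusted over all 19938 genes by the Benjamini-Hochberg method is under 0.05.

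The respiratory chain genes were highest in cDC1, lower in CD24+CD172a+ cDC2 and lowest in CD24-CD172a+ cDC2 for most members. Each gene's deviation from its mean over the 6 arrays had a median over the 89 genes of 0.19 and 0.12 on the cDC1 arrays, -0.04 and -0.01 on the CD24+CD172a+ arrays and -0.14 and -0.11 on the CD24-CD172a+ arrays. By this median both cDC1 arrays lay above all cDC2 arrays, and the arrays of the 2 cDC2 populations did not overlap. This is not particular to the chain. Cytosolic ribosomal protein genes had the same order at smaller size (0.035 and 0.03, -0.005 and 0.002, and -0.038 and -0.027). The 9969 genes above the median gene gave 0.027 and 0.014, 0.006 and 0.031, and -0.041 and -0.032, which also separates the cDC2 populations. The order of means cDC1, CD24+CD172a+, CD24-CD172a+ from high to low held for 56 of the 89 genes (62.9%), against 4051 of all 19938 genes (20.3%). Its share among the genes above the median gene, where most members lie, was not computed. By complex it held for 28 of 41 genes of complex I, 1 of 4 of complex II, 6 of 8 of complex III, 7 of 19 of complex IV and 14 of 17 of complex V. These are bulk samples of sorted cells, in which fewer cells of a type and less RNA per cell cannot be told apart.

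**Figure D1:**
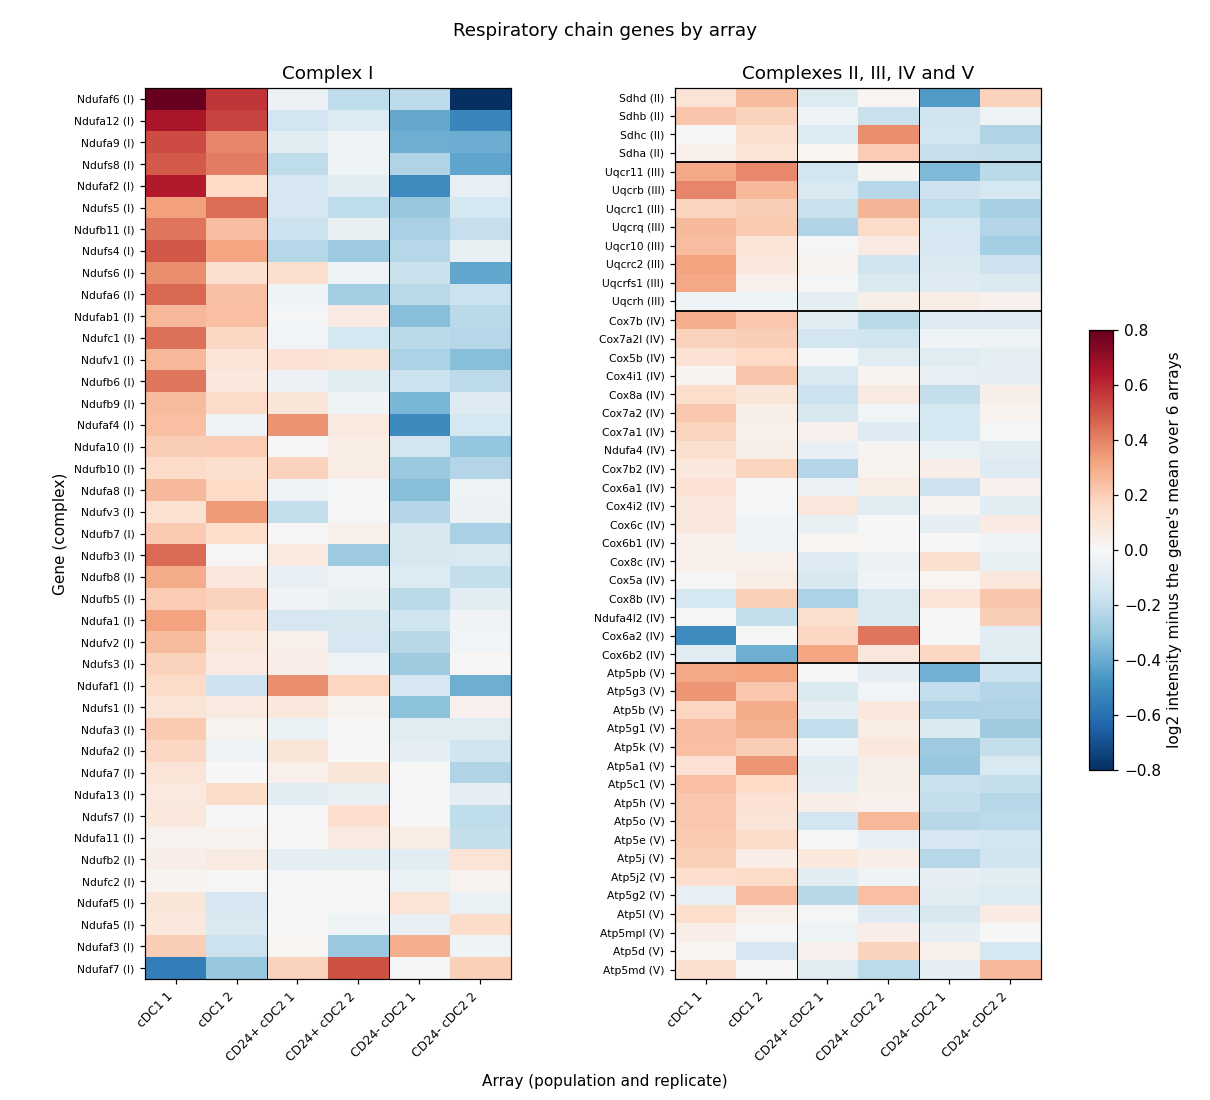
Heat map of the 89 respiratory chain genes (rows, with the complex in brackets, sorted within a complex by the difference of CD24-CD172a+ cDC2 from cDC1) on the 6 arrays (columns); CD24+ cDC2 and CD24- cDC2 stand for the CD24+CD172a+ and CD24-CD172a+ populations. Colour is the log2 intensity minus the gene's mean over the 6 arrays, and values beyond 0.8 in size take the end colours; most genes of complexes I, III and V are red on the cDC1 arrays and blue on the CD24-CD172a+ arrays, while rows of complex IV are mostly pale and Ndufaf7 runs the other way.

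Against cDC1, the CD24-CD172a+ cDC2 had 21 members called lower and 0 called higher by limma (44 members had an unadjusted p under 0.05). The 21 became 11 with cyclic loess, 14 with quantile normalisation again and 36 with an intensity trend and robust variance. That is 23.6% of members lower, against 8.91% of all genes called lower and 6.83% called higher. Against the same cDC1 arrays, the CD24+CD172a+ cDC2 had 9 members lower (10.1%) and 1 higher (1.12%), against 6.52% of all genes lower and 7.11% higher. Both comparisons use the cDC1 arrays, so they are not independent. The 9 genes lower in CD24+CD172a+ cDC2 were all among the 21, and 67 members were called in no comparison. The median difference from cDC1 over the 89 genes was -0.30 in CD24-CD172a+ cDC2, while CD24+CD172a+ cDC2 had -0.17, against 0.0011 and -0.03 over all genes. Most members are bright (84 of 89 lie above the median gene), and over all genes above that median the corresponding medians were -0.05 and -0.01. With the test restricted to those genes, 32 of 84 members (38.1%) were called lower in CD24-CD172a+ cDC2, against 19.8% of all genes kept. The same restriction gave 12 of 84 (14.3%) in CD24+CD172a+ cDC2, against 13.9%, a share near that of all bright genes. Members called higher under it were 1 in CD24-CD172a+ and 2 in CD24+CD172a+ cDC2, against 13.7% and 15.3% of the genes kept. Without a test, both arrays of CD24-CD172a+ cDC2 lay below both cDC1 arrays for 66 members and above them for 3, against 27.4% and 25% of all genes. In CD24+CD172a+ cDC2 they lay below for 56 and above for 5, against 28.6% and 23.5%. Of the 9969 genes above the median, 3919 lay below and 2780 above in CD24-CD172a+ cDC2, and 3296 and 3198 in CD24+CD172a+ cDC2.

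These counts rest on few arrays. Fewer members than the 21 were called without cDC1 replicate 1, cDC1 replicate 2, CD24-CD172a+ replicate 1 or CD24-CD172a+ replicate 2. The median difference of CD24-CD172a+ cDC2 from cDC1 over the 89 genes was then -0.25, -0.33, -0.27 and -0.32. Without cDC1 replicate 1, cDC1 replicate 2, CD24+CD172a+ replicate 1 or CD24+CD172a+ replicate 2, the 9 calls became 1, 2, 2 and 2. A population left with 1 array is assumed in these fits to vary like the others. Ndufa12 was called in all 4 such fits in both comparisons with cDC1, and Ndufa9, Ndufs8 and Ndufaf6 in all 4 for CD24-CD172a+ cDC2. Each other call was lost in at least 1 of its 4 fits, with the highest adjusted p from 0.058 to 0.26 for CD24-CD172a+ cDC2 and from 0.0692 to 0.272 for CD24+CD172a+ cDC2.

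**Figure D2:**
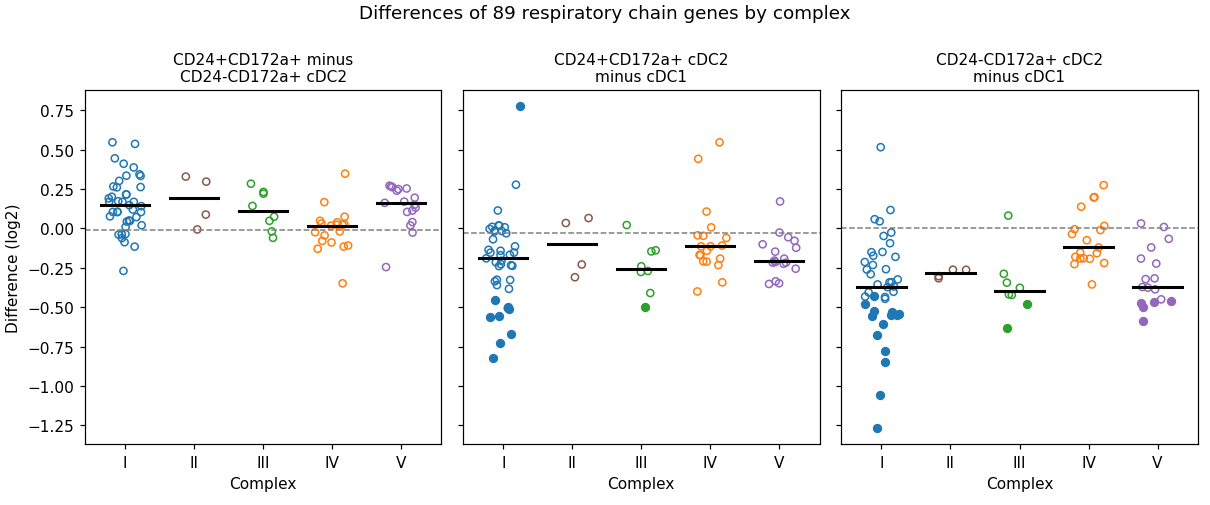
Differences (log2) of the 89 genes by complex, 1 panel per comparison; each circle is a gene, filled where limma's adjusted p is under 0.05, black bars are medians of the complex and the dashed line is the median of all 19938 genes. Filled circles appear only in the comparisons with cDC1 and only for complexes I, III and V, and the lowest is Ndufaf6 at -1.27 in CD24-CD172a+ cDC2.

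Complex I, which has the most genes, carried most of the calls. Of its 41 genes, 14 were lower in CD24-CD172a+ cDC2 than in cDC1, with a median difference of -0.37, and 8 were lower and 1 higher in CD24+CD172a+ cDC2, with a median of -0.19. By class, 10 of 28 accessory subunits, 2 of 6 core subunits and 2 of 7 assembly factors were lower in CD24-CD172a+ cDC2. In CD24+CD172a+ cDC2 the lower genes were 6 accessory subunits, 1 core subunit and 1 assembly factor. In that comparison 6.52% of all genes were lower and 7.11% higher. Of the 9969 genes above the median, 1133 were lower and 1246 higher there. Lower in CD24-CD172a+ cDC2 were 34.1% of complex I, 29.4% of complex V (5 of 17) and 25% of complex III (2 of 8), against 8.91% of all genes. Most members are bright, and of the 9969 genes above the median 1602 were called lower in the same fit. Whether the complexes differ in this share was not tested.

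Among the core subunits, most of which hold the flavin or iron-sulfur clusters that carry electrons, Ndufs8 differed most. It read 9.13 and 9.05 in cDC1, 8.44 and 8.61 in CD24+CD172a+ cDC2, and 8.40 and 8.22 in CD24-CD172a+ cDC2. Every cDC2 array lay below both cDC1 arrays. Ndufs8 was thus 1.72-fold lower in CD24-CD172a+ cDC2 (-0.78 ± 0.13, SE; limma adjusted p = 0.00251) and 1.48-fold lower in CD24+CD172a+ cDC2 (-0.56 ± 0.13; 0.0179). Ndufv1, which binds NADH and the flavin, read 7.26 and 7.09 in cDC1, 7.11 and 7.10 in CD24+CD172a+ cDC2, and 6.74 and 6.65 in CD24-CD172a+ cDC2. Here the CD24+CD172a+ arrays lay within the cDC1 range, and only the fall in CD24-CD172a+ cDC2 was called (-0.48 ± 0.13; adjusted p = 0.0287). That call was lost with quantile normalisation again and with cyclic loess (-0.39). Ndufs1, Ndufs3, Ndufs7 and Ndufv2, the other core subunits measured, differed from cDC1 by -0.29 to -0.15 in CD24-CD172a+ cDC2 and by -0.21 to 0.02 in CD24+CD172a+ cDC2, with no call.

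Accessory subunits surround that core and stabilise it. Ndufa12, of the matrix arm, read 9.27 and 9.16 in cDC1, 8.47 and 8.51 in CD24+CD172a+ cDC2, and 8.21 and 8.10 in CD24-CD172a+ cDC2. The 3 populations did not overlap. It was 2.08-fold lower in CD24-CD172a+ cDC2 (-1.06 ± 0.13; adjusted p = 0.00022) and 1.66-fold lower in CD24+CD172a+ cDC2 (-0.73 ± 0.13; 0.00289). Ndufa9, near the ubiquinone site, also gave 3 separate groups, with 8.50 and 8.37 in cDC1, 7.88 and 7.95 in CD24+CD172a+ cDC2, and 7.59 and 7.58 in CD24-CD172a+ cDC2. Its differences from cDC1 were -0.85 ± 0.13 (adjusted p = 0.00096) for the CD24-CD172a+ population and -0.51 ± 0.13 (0.0208) for the CD24+CD172a+ population.

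Ndufs4, whose loss in mice gives a model of Leigh syndrome, showed another order. It read 10.12 and 9.94 in cDC1, 9.39 and 9.33 in CD24+CD172a+ cDC2, and 9.39 and 9.56 in CD24-CD172a+ cDC2. Both cDC2 populations were below cDC1 (-0.67 ± 0.13 in CD24+CD172a+, adjusted p = 0.00677, and -0.55 ± 0.13 in CD24-CD172a+, 0.018), and the cDC2 populations differed from each other by -0.12 ± 0.13 (0.756). Ndufs5, a subunit on the intermembrane side, read 9.94 and 10.05 in cDC1, 9.47 and 9.40 in CD24+CD172a+ cDC2, and 9.31 and 9.47 in CD24-CD172a+ cDC2, with no cDC2 array within the cDC1 range. It fell by 0.56 ± 0.13 in CD24+CD172a+ cDC2 (adjusted p = 0.0159) and by 0.61 ± 0.13 in CD24-CD172a+ cDC2 (0.0091). A probe set that names both Ndufs5 and its pseudogene, left out of the tests, read 9.04 and 8.89, 8.51 and 8.47, and 8.19 and 8.21 in the same order of populations. Signal from such a near-identical copy cannot be separated from that of the gene.

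Ndufa6 and Ndufb11, of the matrix and membrane arms, were called lower in both cDC2 populations as well, by 0.45 to 0.56. The call of Ndufa6 in CD24-CD172a+ cDC2 was lost with cyclic loess. In CD24+CD172a+ cDC2 it was lost with quantile normalisation again and a fit of only the populations compared. The dimmer probe set of Ndufb11 gave -0.35 in CD24+CD172a+ cDC2 and was not called (adjusted p = 0.14), and that call was also lost when its probe sets were averaged and with median centring, cyclic loess, a fit of only these populations and the replicate block (0.0513). Ndufa10, Ndufab1, Ndufc1 and Ndufs6 were called lower only in CD24-CD172a+ cDC2, with differences from -0.55 (Ndufs6) to -0.43 (Ndufa10), while in CD24+CD172a+ cDC2 theirs ran from -0.38 to -0.17. For all 4 the difference between the cDC2 populations themselves was not called (adjusted p from 0.321 to 0.708). The calls of Ndufa10, Ndufc1 and Ndufs6 were lost with quantile normalisation again and with cyclic loess. That of Ndufa10 was also lost with the replicate block (adjusted p = 0.051) and a fit of only the populations compared (0.0682). The dimmer probe set of Ndufc1 gave -0.47 in CD24-CD172a+ cDC2 and was not called (0.0739). Ndufab1 is also the acyl carrier protein of mitochondrial fatty acid synthesis. It read 8.94 and 8.91 in cDC1, 8.66 and 8.74 in CD24+CD172a+ cDC2, and 8.34 and 8.46 in CD24-CD172a+ cDC2, 3 separate groups. Of the 18 accessory subunits called in no comparison, Ndufc2, Ndufb2, Ndufa11 and Ndufa5 lay closest to 0 in CD24-CD172a+ cDC2, at -0.03, -0.05, -0.09 and 0.06.

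Assembly factors help build complex I and are not part of it, and their members moved in both directions. Ndufaf6 read 5.92 and 5.67 in cDC1, 5.05 and 4.90 in CD24+CD172a+ cDC2, and 4.90 and 4.17 in CD24-CD172a+ cDC2. It had the lowest difference of all members, -1.27 ± 0.21 in CD24-CD172a+ cDC2 (adjusted p = 0.00202) and -0.82 ± 0.21 in CD24+CD172a+ cDC2 (0.026), but its CD24-CD172a+ arrays stood far apart and its replicate SD, pooled over the populations, was the largest of the 89 genes (0.321). Its means in CD24-CD172a+ and CD24+CD172a+ cDC2 (4.53 and 4.98) lay below the mean of the median gene (5.04). Signal over background was not examined. Ndufaf2, a paralogue of Ndufa12 that takes its place during assembly, was called lower in CD24-CD172a+ cDC2 (-0.68 ± 0.19; adjusted p = 0.0326) and not in CD24+CD172a+ cDC2 (-0.51 ± 0.19; 0.116). The call of Ndufaf2 was lost with cyclic loess and with a fit of only the populations compared. It read 8.08 and 7.61 in cDC1, 7.31 and 7.36 in CD24+CD172a+ cDC2, and 6.95 and 7.38 in CD24-CD172a+ cDC2, so that every cDC2 array lay below both cDC1 arrays, and the cDC2 populations differed by 0.17 ± 0.19 (0.739). Ndufaf7, a methyltransferase that acts on a core subunit, was the only member called higher in a cDC2 population. It read 5.77 and 6.02 in cDC1, 6.51 and 6.83 in CD24+CD172a+ cDC2, and 6.30 and 6.51 in CD24-CD172a+ cDC2, so that every cDC2 array lay above both cDC1 arrays. The rise was 0.78 ± 0.16 in CD24+CD172a+ cDC2 (adjusted p = 0.00732), and the difference was 0.52 ± 0.16 in CD24-CD172a+ cDC2, where it missed the threshold (0.0521). Without cDC1 replicate 1 or CD24+CD172a+ replicate 2 the rise of Ndufaf7 was no longer called (highest adjusted p = 0.0832). Ndufaf1, Ndufaf3, Ndufaf4 and Ndufaf5 were called in no comparison.

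**Figure D3:**
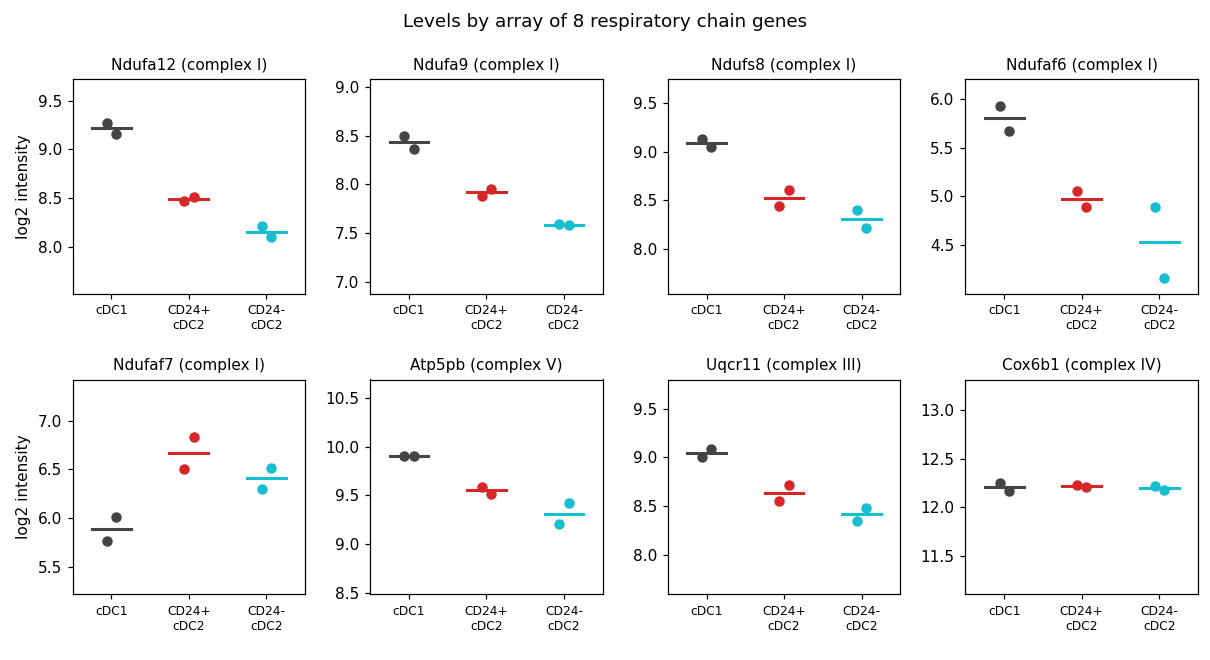
Levels (log2 intensity) of 8 genes on each array (points) with the population mean (bars); CD24+ cDC2 and CD24- cDC2 stand for the CD24+CD172a+ and CD24-CD172a+ populations, and each panel spans the same number of log2 units around its own mean. Ndufa12 and Ndufa9 form 3 separate groups, Ndufaf7 is lowest in cDC1, the CD24-CD172a+ points of Ndufaf6 lie far apart, and the points of Cox6b1 nearly coincide.

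Many members differed from cDC1 in the same direction, and their promoters were read for letters bound by factors known for respiratory chain genes. RefSeq promoters (GRCm38.p6) were matched by symbol for 73 of the 89 genes, in 78 windows of 250 bases before the start. On both strands, the letters of NRF1, nuclear respiratory factor 1 (GCGCA, any base, GCGC), stood in 14 of 78 windows (17.9%), against 3.74% of all 32851 promoters and 5.63% of those of the genes tested. The share was 15.8% (3 of 19) for members called lower than in cDC1 and 18.6% (11 of 59) for the others. The ETS letters CCGGAAGT, bound by GABP among others, stood in 3.85% of member windows, 2.88% of all and 4% of those of the genes tested, and the YY1 letters AAGATGGC in 1.28%, 1.56% and 1.55%. Windows of a gene with several starts were counted separately. The 3 called members with an NRF1 match are shown with Ndufa12, which was called in every fit with an array left out in both comparisons with cDC1 and has none of these letters in its window. Each is read 5′ to 3′ on the gene's strand and ends at the base before the start, and capitals mark the NRF1 letters.
Ndufa12, chr10:94198785-94199034, plus strand: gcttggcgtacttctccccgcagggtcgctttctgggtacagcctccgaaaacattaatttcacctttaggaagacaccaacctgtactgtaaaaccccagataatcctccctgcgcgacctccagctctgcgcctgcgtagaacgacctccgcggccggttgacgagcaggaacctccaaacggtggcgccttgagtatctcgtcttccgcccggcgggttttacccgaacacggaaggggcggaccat
Ndufs5, chr4:123718187-123718436, minus strand: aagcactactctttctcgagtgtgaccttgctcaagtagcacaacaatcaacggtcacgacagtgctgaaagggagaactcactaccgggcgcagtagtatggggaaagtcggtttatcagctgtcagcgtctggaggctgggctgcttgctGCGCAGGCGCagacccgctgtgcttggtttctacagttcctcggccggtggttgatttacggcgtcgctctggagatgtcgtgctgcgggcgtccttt
Ndufs6, chr13:73328483-73328732, minus strand: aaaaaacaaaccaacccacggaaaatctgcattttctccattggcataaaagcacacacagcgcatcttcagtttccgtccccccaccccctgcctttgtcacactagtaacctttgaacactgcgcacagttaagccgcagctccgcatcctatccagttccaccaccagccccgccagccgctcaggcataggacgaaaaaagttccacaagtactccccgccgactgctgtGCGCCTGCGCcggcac
Atp5k, chr5:108434400-108434649, minus strand: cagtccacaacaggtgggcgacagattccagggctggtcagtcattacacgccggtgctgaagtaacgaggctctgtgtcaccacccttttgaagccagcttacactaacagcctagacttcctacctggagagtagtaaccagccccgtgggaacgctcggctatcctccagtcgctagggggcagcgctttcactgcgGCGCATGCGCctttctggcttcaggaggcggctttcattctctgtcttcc
In Ndufs5, Ndufs6 and Atp5k the match begins 98, 16 and 50 bases before the start. A match is a description of letters, not of binding. The transcript of Nrf1 itself read 5.37 and 5.54 in cDC1, 5.92 and 5.47 in CD24+CD172a+ cDC2, and 5.71 and 5.68 in CD24-CD172a+ cDC2, with no call.

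Complex III hands electrons from ubiquinol to cytochrome c. Of its 8 genes, 2 were lower in CD24-CD172a+ cDC2, while CD24+CD172a+ cDC2 had 1 lower, with medians of -0.40 and -0.26. Uqcrb, a small subunit by the ubiquinone site, read 9.86 and 9.73 in cDC1, 9.35 and 9.25 in CD24+CD172a+ cDC2, and 9.31 and 9.33 in CD24-CD172a+ cDC2. All 4 cDC2 arrays lay close together and below cDC1, with differences of -0.50 ± 0.13 (adjusted p = 0.0249) and -0.48 ± 0.13 (0.0272). Its 2 dimmer probe sets, fitted on their own, gave -0.53 and -0.53 in CD24+CD172a+ cDC2 and -0.56 and -0.51 in CD24-CD172a+ cDC2, each called. The call of Uqcrb in CD24-CD172a+ cDC2 was lost with quantile normalisation again and with cyclic loess (-0.40). Uqcr11, another small subunit, read 9.01 and 9.08 in cDC1, 8.55 and 8.72 in CD24+CD172a+ cDC2, and 8.35 and 8.48 in CD24-CD172a+ cDC2. It was called in CD24-CD172a+ cDC2 (-0.63 ± 0.13; adjusted p = 0.00807) and not in CD24+CD172a+ cDC2 (-0.41 ± 0.13; 0.0712), although there its dimmer probe set was (-0.56; 0.0187). The core proteins Uqcrc1 and Uqcrc2 differed by -0.42 and -0.34 in CD24-CD172a+ cDC2, and the Rieske protein Uqcrfs1 by -0.29, without a call. Uqcrh, the hinge protein, was the only gene of the complex with a positive difference there (0.08 ± 0.13).

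Complex V had 5 of 17 genes lower in CD24-CD172a+ cDC2, with a median of -0.37, and 0 in CD24+CD172a+ cDC2 (3 with an unadjusted p under 0.05), with a median of -0.20. Of the 5 (Atp5b, Atp5g1, Atp5g3, Atp5k and Atp5pb), only Atp5g3 and Atp5pb stayed called with cyclic loess. Quantile normalisation again kept those and Atp5b. The call of Atp5pb was lost when its probe sets were averaged. Atp5b, the catalytic beta subunit, read 10.61 and 10.73 in cDC1, 10.37 and 10.52 in CD24+CD172a+ cDC2, and 10.19 and 10.20 in CD24-CD172a+ cDC2. Its fall in CD24-CD172a+ cDC2 was 0.47 ± 0.13 (adjusted p = 0.0312), and its partner in the catalytic ring, Atp5a1, differed by -0.45 ± 0.14 without passing (0.0582). Atp5pb, of the peripheral stalk, had the largest difference of the complex (-0.59 ± 0.13; adjusted p = 0.0115). It read 9.90 and 9.90 in cDC1, 9.59 and 9.52 in CD24+CD172a+ cDC2, and 9.21 and 9.42 in CD24-CD172a+ cDC2, but its dimmer probe set gave -0.21 and was not called (0.401). Atp5k, a small subunit of the membrane part, fell by 0.46 ± 0.13 (0.0333).

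The c subunit, which forms the rotating ring, comes from 3 genes that encode the same mature protein. Atp5g1 and Atp5g3 were lower in CD24-CD172a+ cDC2 by 0.47 ± 0.14 (adjusted p = 0.0466) and 0.50 ± 0.13 (0.0222). Atp5g3 read 11.07 and 10.94 in cDC1, 10.60 and 10.70 in CD24+CD172a+ cDC2, and 10.52 and 10.49 in CD24-CD172a+ cDC2. Atp5g2 differed by -0.19 ± 0.17 (0.571) and its replicates lay far apart in cDC1 and CD24+CD172a+ cDC2, at 10.31 and 10.63, 10.16 and 10.62, and 10.28 and 10.27. The difference between the c subunit genes was not tested.

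Complex II, which is also an enzyme of the tricarboxylic acid cycle, had 0 of 4 genes called by limma in any comparison, and 1 with an unadjusted p under 0.05 in each. Its median differences were -0.28 in CD24-CD172a+ and -0.10 in CD24+CD172a+ cDC2. Sdhb, the iron-sulfur subunit, had the smallest p against cDC1. It read 8.42 and 8.39 in cDC1, 8.17 and 8.03 in CD24+CD172a+ cDC2, and 8.04 and 8.16 in CD24-CD172a+ cDC2, so both cDC2 populations lay below cDC1 (-0.31 ± 0.13, adjusted p = 0.167, and -0.30 ± 0.13, 0.162). Sdha, the flavoprotein, and Sdhc and Sdhd, the membrane anchors, differed by -0.32 to -0.26 in CD24-CD172a+ cDC2. In CD24+CD172a+ cDC2, Sdha and Sdhc were at 0.03 and 0.07 and Sdhd at -0.23.

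Complex IV, cytochrome c oxidase, had 0 of 19 genes called by limma in either comparison with cDC1, with 1 unadjusted p under 0.05 in CD24-CD172a+ and 4 in CD24+CD172a+ cDC2. Its medians were -0.12 and -0.11. Over the 10 subunits without the alternative isoforms they were -0.17 and -0.14. Whether complex IV differed from the other complexes was not tested. Cox6b1, which links the dimer, read 12.26 and 12.17 in cDC1, 12.23 and 12.21 in CD24+CD172a+ cDC2, and 12.22 and 12.18 in CD24-CD172a+ cDC2, with all populations overlapping. Cox5a, Cox6a1 and Cox6c differed from cDC1 by -0.12 to 0.02, and the CD24+CD172a+ arrays of Cox5a (10.26 and 10.36) lay below those of both other populations. Cox4i1, Cox5b, Cox7a2, Cox8a and Ndufa4 differed by -0.22 to -0.16 in CD24-CD172a+ cDC2. Cox7b was the lowest of the complex. It read 11.84 and 11.76 in cDC1, 11.47 and 11.33 in CD24+CD172a+ cDC2, and 11.44 and 11.45 in CD24-CD172a+ cDC2, with no cDC2 array in the cDC1 range. Its differences of -0.40 ± 0.13 and -0.36 ± 0.13 missed the threshold (adjusted p = 0.0659 and 0.0927), whereas its dimmer probe set passed in both (-0.49, 0.0453, and -0.56, 0.0244). Cox7a2l, which joins complexes III and IV into supercomplexes, read 11.06 and 11.07, 10.73 and 10.72, and 10.84 and 10.83 in the same order. Its replicates were nearly equal, but the differences of -0.34 and -0.23 were not called (0.103 and 0.283).

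Several complex IV subunits have tissue isoforms, and none was called in any comparison. Cox6a2, the heart and muscle isoform of subunit 6A, which is also a plasmacytoid dendritic cell transcript, read 5.01 and 5.52 in cDC1, 5.68 and 5.94 in CD24+CD172a+ cDC2, and 5.50 and 5.42 in CD24-CD172a+ cDC2. The CD24+CD172a+ arrays lay above all others, with a difference of 0.55 ± 0.18 from cDC1 (adjusted p = 0.0712), which passed when genes below the median were left out of the test. Beside it, 3 of 7 plasmacytoid markers (Cox6a2 among the 7) were higher and 1 lower in CD24+CD172a+ cDC2 than in cDC1, and their summed linear intensity was 745 to 767 in CD24+CD172a+, 606 to 618 in cDC1 and 484 to 485 in CD24-CD172a+ cDC2. Of the 7 differences from cDC1, 4 were above 0 and 3 below. Against CD24-CD172a+ cDC2, 3 were called higher and 0 lower in CD24+CD172a+ cDC2, with all 7 differences above 0. Siglech, which defines plasmacytoid cells, read 5.73 and 5.99 in CD24+CD172a+ cDC2 and 4.71 and 4.70 in cDC1; the part of these cells in the value of Cox6a2 was not tested. Cox6b2, a testis isoform, differed by 0.44 ± 0.16 in CD24+CD172a+ cDC2 (0.105). Cox4i2, Cox7a1, Cox8b, Cox8c and Ndufa4l2 differed from cDC1 by -0.21 to 0.20 in the 2 cDC2 populations. Cox7b2 read 2.66 to 3.07 over the 6 arrays, below the 25th percentile of all values (3.72), the only member so dim in every population.

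Between the cDC2 populations, 0 members were called in either direction by limma, against 0.808% of all genes higher and 0.652% lower in CD24+CD172a+ cDC2, and 10 members had an unadjusted p under 0.05. With genes below the median left out, 0 were called too, against 2.7% of the genes kept higher and 1.69% lower. Of the differences, 68 were above 0 and 21 below (57 and 32 with cyclic loess), against 5940 and 4029 of the 9969 genes above the median, with a median of 0.10 against -0.01 over all genes and 0.05 over genes above the median. In 38 members both CD24+CD172a+ arrays lay above both CD24-CD172a+ arrays and in 4 below, against 21.4% and 22.8% of all genes and 3211 and 1896 of the 9969 genes above the median. Medians were 0.15 in complex I, 0.19 in complex II, 0.11 in complex III, 0.02 in complex IV and 0.16 in complex V. The member with the largest difference was Ndufaf4, an assembly factor, at 7.39 and 7.11 in CD24+CD172a+ and 6.52 and 6.89 in CD24-CD172a+ cDC2 (0.55 ± 0.17; adjusted p = 0.168). Ndufaf1, another assembly factor, had the smallest p of complex I, with 6.20 and 6.0 against 5.69 and 5.44 (0.54 ± 0.16; 0.15). Of complexes II, III, IV and V, the smallest p belonged to Sdha (0.30 ± 0.13; 0.343), Uqcrc1 (0.28 ± 0.16; 0.461), Cox8b (-0.35 ± 0.15; 0.322) and Atp5k (0.27 ± 0.13; 0.382).

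Other transcripts moved between the same populations. Of 28 cell cycle genes, 12 were higher in CD24+CD172a+ than in CD24-CD172a+ cDC2 (median 0.72), and their summed intensity was 6228 to 6857 against 4842 to 5116, with 5140 to 5366 in cDC1. Of 9 markers of monocytes and macrophages, CD24+CD172a+ cDC2 had 6 below their level in CD24-CD172a+ cDC2 (each called). Against cDC1, 5 were higher and 1 lower in CD24-CD172a+ cDC2, and 2 were higher and 3 lower in CD24+CD172a+ cDC2. The summed intensity of the 9 was 2344 to 2611 in CD24+CD172a+, 4380 to 4560 in CD24-CD172a+ cDC2 and 3952 to 4212 in cDC1. Adgre1, which encodes F4/80, read 7.75 and 7.79, 8.65 and 9.13, and 4.12 and 4.23 in that order. In CD24+CD172a+ cDC2 Adgre1 thus lay above cDC1 while the sum lay below it. The part of either list in the values of the respiratory chain genes was not tested. Summed markers of B cells were 195 to 231 in cDC1, 148 to 163 in CD24+CD172a+ cDC2 and 131 to 163 in CD24-CD172a+ cDC2. Of the 5 measured, Ms4a1, which encodes CD20, was lower in both cDC2 populations (-1.52 and -1.38), and Cd79b was higher in CD24+CD172a+ cDC2 (0.57). Their part was not tested either. Summed markers of T, NK and erythroid cells lay between 62.7 and 109 on every array. Of the 5 T cell markers measured, 1 was called higher in CD24-CD172a+ cDC2 than in cDC1.

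Genes that work beside the chain but do not match the naming rule were read from further lists. Cycs, cytochrome c, which carries electrons from complex III to complex IV, read 10.79 and 10.73 in cDC1, 10.01 and 9.90 in CD24+CD172a+ cDC2, and 9.73 and 9.87 in CD24-CD172a+ cDC2. It fell by 0.81 ± 0.13 (adjusted p = 0.00159) and 0.97 ± 0.13 (0.000453), and Atpif1, the inhibitor of complex V, by 0.75 ± 0.13 (0.00213) and 0.80 ± 0.13 (0.00134). These were the 2 called of 9 subunits and carriers outside the rule. Of 36 further assembly factors, 9 were lower and 1 higher in CD24-CD172a+ cDC2 than in cDC1, and 5 lower and 2 higher in CD24+CD172a+ cDC2. Coa5, a complex IV assembly factor, was lower in both (-0.88 ± 0.12 in CD24+CD172a+ and -1.17 ± 0.12 in CD24-CD172a+ cDC2), and Sdhaf1, which inserts the iron-sulfur clusters of complex II, was higher in both, by 1.03 ± 0.14 and 0.83 ± 0.14.

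Of 77 mitochondrial ribosomal protein genes, whose ribosome makes the subunits encoded in mitochondrial DNA, 26 were lower in CD24-CD172a+ cDC2 than in cDC1 (median -0.35) and 8 in CD24+CD172a+ cDC2 (median -0.17). Mrpl42 had the largest difference, -1.72 ± 0.15 and -1.65 ± 0.15. Cytosolic ribosomal protein genes had medians of -0.07 and -0.03, with 2 of 59 lower in each comparison and 1 higher in CD24-CD172a+ cDC2. Among the regulators of mitochondrial gene expression, 2 of 19 were higher and 0 lower than in cDC1 in both cDC2 populations by limma. Ppargc1a, the coactivator PGC-1alpha that raises respiratory chain genes in muscle and brown fat, read 3.53 and 4.16 in cDC1, 7.03 and 7.06 in CD24+CD172a+ cDC2, and 6.52 and 6.50 in CD24-CD172a+ cDC2. It was higher by 3.20 ± 0.18 (adjusted p = 9.932e-07) and 2.66 ± 0.18 (3.698e-06). Its cDC1 level lies around the 25th percentile of all values (3.72) and was not shown to be above background, so the sizes are given as measured on these arrays only. Gabpb1, a subunit of GABP, was higher by 0.63 ± 0.16 and 0.76 ± 0.16, and Tfam, which packages and transcribes mitochondrial DNA, was not called.

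**Figure D4:**
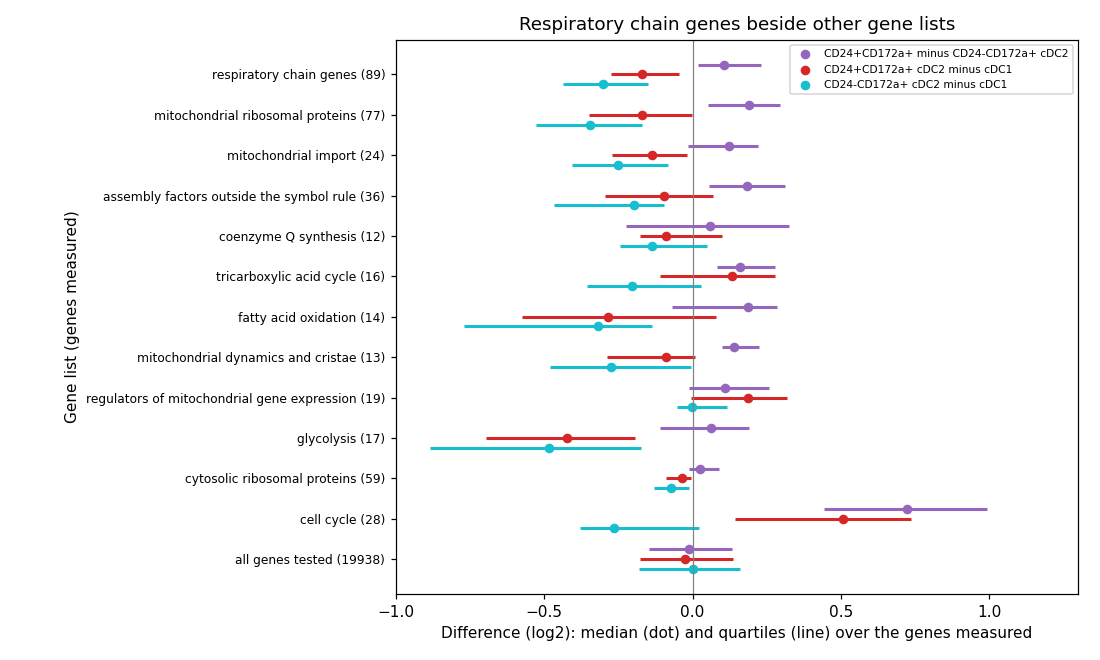
Median (dot) and quartiles (line) of the differences (log2) of the respiratory chain genes, 11 other gene lists and all genes tested, by comparison (colour), with the number of genes measured in brackets. The respiratory chain genes lie near the mitochondrial ribosomal proteins, with medians of -0.30 and -0.35 in CD24-CD172a+ cDC2 against cDC1, the cell cycle genes stand highest in CD24+CD172a+ cDC2 and the cytosolic ribosomal proteins stay near 0.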

How the data were processed

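Expression was measured on 6 arrays, and the deposited intensity of each probe set was processed by the authors in Affymetrix Expression Console with RMA, per the submitters' processing notes; versions and annotation build are not given in the sources used here. RMA corrects background, normalises between arrays and summarises probes. The values proved to be on a linear scale, so log2 was taken. Without scanner files, signal over background was not examined, and precision is limited by having 6 arrays.

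Of 28853 probe sets, 21789 had 1 gene symbol, 1621 several and 5443 none; 21698 of those used had a gene ID in the RefSeq table of GRCm38.p6, and 0 symbols changed. For 999 genes with several probe sets the one with the highest mean was kept, giving 19938 genes. A further 6 probe sets match the rule only beside a second symbol and were left out. Populations were compared in R 4.3.3 by limma 3.58.1 (lmFit, then eBayes with no trend; all 6 arrays in 1 fit, 3 residual and 7.31 prior degrees of freedom, threshold 0.05, no filter on dim genes). Promoters and figures were handled with Python 3.11.15, pandas 2.3.3 and matplotlib 3.10.9.

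The members and the 24 other gene lists were chosen with earlier results of these data known, so lists are described by counts and medians, without a test. Named were the isoform pairs, c subunit genes, Sdha to Sdhd and core complex I subunits; every called member up to 12 per direction; otherwise the smallest p in a complex; and up to 4 called genes per direction of each other list, or else the smallest p. Genes below that limit, dimmer probe sets and markers were named after their values were seen. The fit was tested on simulated data, where for the comparison of the 2 cDC2 populations (200 of 19938 genes changed, 10 simulations) it recovered 5.95%, 85.5% and 99.7% of genes changed by 0.5, 1 and 2, with 6.07% of calls false. Alternatives were filters on dim genes, other choices of probe sets, 3 normalisations, robust variance with an intensity trend, weighted arrays, a fit of only the populations compared, a block for the replicate number, and fits without each array in turn.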

Additional observations from a re-analysis of the deposited data

How the results depend on the processing

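No called difference changed sign under an alternative, and 0 members were called between the cDC2 populations in every alternative run. The median difference between the cDC2 populations, 0.10, became 0.0681 with quantile normalisation again, 0.14 with median centring and 0.0609 with cyclic loess, and ran from 0.0709 to 0.1217 with an array left out; the split of all called genes there was 161 higher and 130 lower against 213 and 111 with median centring, and it fell to 11 and 9 without CD24+CD172a+ replicate 1. For CD24+CD172a+ cDC2 against cDC1, the 1 gene higher became 2 without genes below the median, 3 with the replicate block and 0 to 2 with an array left out, and the 9 lower became 16 with an intensity trend and robust variance and 1 to 7 with an array left out. For CD24-CD172a+ cDC2 against cDC1, 1 gene was called higher, in place of 0, with either filter on dim genes, quantile normalisation again, cyclic loess, the trend or the replicate block, and 0 with an array left out. Without genes below the median, with cyclic loess, with quantile normalisation again and with the trend, that gene was Ndufaf7. The 21 genes lower became 32 without genes below the median, 11 with cyclic loess and 14 with quantile normalisation again (all among the 21), 36 with the trend and 5 to 18 with an array left out. The median of -0.30 became -0.25 with quantile normalisation again and -0.21 with cyclic loess, and ran from -0.33 to -0.25 with an array left out. The cause of these shifts was not tested. Deviations of arrays with the same replicate number correlated at 0.0837, 0.0242 and 0.0838, so the numbers were not taken as pairs; with the replicate block, 8 and 21 members were lower than in cDC1.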

Other observations

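Other mitochondrial lists, fitted the same way and not tested as lists, had most of their calls against cDC1, as did all genes. Of all genes tested, 8.91% were lower and 6.83% higher in CD24-CD172a+ cDC2 than in cDC1, and 6.52% and 7.11% in CD24+CD172a+ cDC2. Between the cDC2 populations 1.46% were called. With only genes above the median tested, 19.8% and 13.9% were lower than in cDC1 in CD24-CD172a+ and CD24+CD172a+ cDC2. In CD24-CD172a+ cDC2, 5 of 14 fatty acid oxidation genes were lower (median -0.32), and Slc25a20, the carnitine carrier, fell by 1.35 ± 0.14 there and by 1.61 ± 0.14 in CD24+CD172a+ cDC2, where 4 were lower. Of 24 import genes 4 were lower in CD24-CD172a+ and 3 in CD24+CD172a+ cDC2, with Tomm70a, a receptor of the outer membrane, at -0.85 ± 0.12 and -0.70 ± 0.12. Of 13 genes for dynamics and cristae 4 and 1 were lower, with Phb2, a prohibitin, at -0.95 ± 0.14 and -0.53 ± 0.14. Of 12 coenzyme Q synthesis genes, 1 was higher and 2 lower in CD24-CD172a+ cDC2 and 1 higher in CD24+CD172a+ cDC2, the higher gene being Coq8a (0.96 ± 0.16 and 0.58 ± 0.16).

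Some lists moved in both directions. In the tricarboxylic acid cycle, 2 of 16 genes were higher and 4 lower in CD24-CD172a+ cDC2 than in cDC1, and 3 higher and 2 lower in CD24+CD172a+ cDC2. Mdh2, the mitochondrial malate dehydrogenase, read 10.24 and 10.41 in cDC1, 11.43 and 11.65 in CD24+CD172a+ cDC2, and 11.40 and 11.39 in CD24-CD172a+ cDC2, above cDC1 on every array (1.22 ± 0.14 and 1.06 ± 0.14). Cs, citrate synthase, was lower in both (-0.61 ± 0.14 and -0.71 ± 0.14). Idh2, which makes NADPH in the matrix, was the gene of this list called between the cDC2 populations, at 8.14 and 8.21 in CD24+CD172a+ and 7.29 and 7.18 in CD24-CD172a+ cDC2 (0.94 ± 0.13; limma adjusted p = 0.00973). Of 17 glycolysis genes 2 were higher and 9 lower in CD24-CD172a+ cDC2 than in cDC1, and 2 higher and 7 lower in CD24+CD172a+ cDC2; Slc2a1, the glucose transporter, was higher (1.68 ± 0.14 and 1.57 ± 0.14) and Pfkp lower (-1.68 ± 0.13 and -1.35 ± 0.13). Of 8 genes for peroxide and superoxide defence, Gpx4, which removes lipid peroxides, was higher in both (0.997 ± 0.13 in CD24-CD172a+ and 1.12 ± 0.13 in CD24+CD172a+ cDC2), while 4 and 1 were lower, with Sod2 in both. Neutrophil markers summed to 233 to 258 in CD24+CD172a+ cDC2, 129 to 141 in CD24-CD172a+ cDC2 and 145 to 154 in cDC1. In CD24+CD172a+ cDC2, 2 of the 6 were called higher than in CD24-CD172a+ cDC2 and 2 higher than in cDC1.

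Of the subunits encoded in mitochondrial DNA, probe sets for 2 genes carried symbols outside the naming rule. Both probe sets of COX2, a core subunit of complex IV, read between 12.3 and 12.6 on the 6 arrays. Those of ND3, of complex I, read 10.5 to 10.7 and 12.4 to 12.6, with no population apart from the others. Probe sets that name Cox7c beside a predicted gene, left out of the tests, read 11.2 to 11.5 in cDC1, 11.1 to 11.2 in CD24+CD172a+ cDC2 and 10.9 to 11.3 in CD24-CD172a+ cDC2, and in each of the 3 probe sets every cDC2 array lay below both cDC1 arrays. The 2 probe sets that name Ndufb4 beside a related gene lay the other way, at 8.64 and 8.62 in cDC1, 8.72 and 8.98 in CD24+CD172a+ cDC2, and 8.72 and 8.80 in CD24-CD172a+ cDC2 for the first. For the second they read 8.98 and 8.97, 9.08 and 9.36, and 9.08 and 9.15, with every cDC2 array above both cDC1 arrays in each.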
